A study of Homo sapiens with 4 samples.

Results

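CL1-0 cells carrying a PSAT1 expression vector were compared with CL1-0 cells carrying the empty vector, 1 array each, which is 2 of the 4 arrays of the series. The samples were chosen by their titles. CL1-0 is a human lung adenocarcinoma line of low invasiveness. Per the labels, both cultures were stably transduced, held in puromycin for 2 weeks and grown at 37 degrees under 5% CO2, so the control carries the selection marker as well. Biotinylated cRNA from 6 ug of total RNA was hybridised to a 1-colour Affymetrix expression array. The other 2 arrays, of the more invasive line CL1-5 with a non-silencing or a PSAT1 hairpin, are used only for side-by-side levels. Nothing in the labels says whether a line is a clone or a pool. The labelled cell type, alveolar type II, was checked against its markers: 12 of the 15 that had a probe set were measured and none differed by 2-fold, and signals were SFTPC 150 with vector and 131.5 with PSAT1, SFTPB 185 and 191, and NKX2-1 90.5 and 74.6. SFTPD, SLC34A2 and HOPX were below the floor on both arrays.

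PSAT1 encodes phosphoserine aminotransferase, which takes an amino group from glutamate to make phosphoserine on the route to serine, and releases alpha-ketoglutarate. Serine feeds protein, nucleotide and glutathione synthesis through one-carbon metabolism, and alpha-ketoglutarate is a substrate of many dioxygenases, collagen hydroxylases and histone and DNA demethylases among them. The pathway is often raised in tumours and is one of the targets of the amino acid stress factor ATF4.

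Each value is a deposited probe set signal on a linear scale. Signals below a floor of 49.0, the pooled median over all 4 arrays, were set to it, and a gene counted as measured when 1 or both CL1-0 arrays exceeded it. Genes above the floor on 1 array only (587 with vector, 283 with PSAT1) could have a ratio of 1 sign only, which adds to sign counts. The words "higher", "rose", "lower" and "fell" are kept for differences past 2-fold. A log2 ratio is PSAT1 minus vector, positive when the PSAT1 array was brighter. With 1 array a side there is no replicate and no test, so every value describes these 2 arrays, and culture, selection and labelling cannot be told apart from the vector. "At least" marks a fold against the floor. Of 13187 measured genes, 337 (2.56%) were higher and 133 (1.01%) lower with PSAT1, 3.56% in all. The PSAT1 probe sets themselves read 4214 with vector and 5494 with PSAT1 (log2 ratio 0.38), and 1509 and 1617 (0.10), so the targeted gene did not reach 2-fold. Where these probes lie relative to the introduced sequence was not checked. Signal passed the floor at 52.0% of probe sets with vector and 51.7% with PSAT1.

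Promoter sequences are shown for 8 genes past 2-fold whose promoters carry a named element, to show how it sits in them: 5 of the antiviral genes that fell, the retinoic acid hydroxylase CYP26A1, and 2 stress genes that rose. Each is a stretch of 90 bases from within the 250 before a transcription start in RefSeq (GRCh38.p14), written 5' to 3' on the gene's strand. Capitals mark the element, on either strand. In the first 5 it is the interferon-stimulated response element, searched as GAAA, any 2 bases and GAAAC. In CYP26A1 it is a direct repeat bound by retinoic acid receptors, searched as AGTTCA, any 5 bases and AGTTCA, and in CHAC1 and JDP2 it is a C/EBP-ATF composite element, searched as TGATGCAAC. The capitals of ISG15 cover 2 overlapping matches.
IFIT1: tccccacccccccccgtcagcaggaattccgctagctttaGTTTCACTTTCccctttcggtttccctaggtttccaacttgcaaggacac
IFIT3: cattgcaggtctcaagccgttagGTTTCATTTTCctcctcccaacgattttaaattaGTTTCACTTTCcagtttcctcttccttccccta
ISG15: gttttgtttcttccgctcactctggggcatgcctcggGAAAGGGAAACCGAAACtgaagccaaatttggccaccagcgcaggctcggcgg
HERC5: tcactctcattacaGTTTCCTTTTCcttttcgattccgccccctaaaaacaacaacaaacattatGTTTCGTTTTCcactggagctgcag
CXCL10: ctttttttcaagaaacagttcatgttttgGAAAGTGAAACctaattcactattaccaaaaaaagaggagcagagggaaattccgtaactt
CYP26A1: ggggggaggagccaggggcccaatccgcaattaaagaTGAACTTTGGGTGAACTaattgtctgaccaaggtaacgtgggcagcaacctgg
CHAC1: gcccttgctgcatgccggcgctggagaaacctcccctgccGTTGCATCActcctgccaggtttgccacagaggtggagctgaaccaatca
JDP2: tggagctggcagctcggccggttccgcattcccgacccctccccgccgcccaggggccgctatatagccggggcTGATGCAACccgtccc

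These stretches lie at chr10:89392466-89392555 (IFIT1, plus strand), chr10:89327817-89327906 (IFIT3, plus), chr1:1013347-1013436 (ISG15, plus), chr4:88456979-88457068 (HERC5, plus), chr4:76023658-76023747 (CXCL10, minus), chr10:93073766-93073855 (CYP26A1, plus), chr15:40953221-40953310 (CHAC1, plus) and chr14:75427932-75428021 (JDP2, plus). All lie upstream of the start, outside the transcript. The response element was present in 0.644% of 35116 promoters, in 11 of the 101 lower genes with a promoter sequence (10.9%) and in 1 of 265 higher genes (0.377%), against 79 of 10609 measured genes (0.745%). The 11 were CXCL10, DDX60, HERC5, IFI44, IFI6, IFIH1, IFIT1, IFIT3, IFIT5, ISG15 and ISG20, and the higher gene was SPMIP4. The direct repeat occurred in 3 of the 35116 promoters and the composite element in 65 (0.185%). Among the 10609 measured genes the direct repeat was found in 2 and the composite element in 18. Among higher genes the first was found in CYP26A1 alone and the second in CHAC1 and JDP2. Only 1 exact form of the direct repeat was searched, that printed for CYP26A1, so its rarity was partly set by the search. A heat shock element, searched as GAA, any 2 bases, TTC, any 2 bases and GAA, occurred in 0.441% of promoters. It was found in 4 of 265 higher genes (DOCK10, JAK3, LINGO1 and TAS2R14) and in 1 of 101 lower genes (CHORDC1). Among measured genes it was found in 50 of 10609 (0.471%). A match describes the letters of the window and not a bound site.

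The genes that differed most belonged to many families (plot of ratios by signal). FLRT3, a membrane protein of cell adhesion that also binds FGF receptors, read 26.0 with vector and 1547 with PSAT1, at least 31.6-fold higher. CCDC50, an adaptor in EGF receptor signalling, read 523 and 4189, and its 5 probe sets were all past 2-fold, with log2 ratios of up to 4.04. PCDH7, a protocadherin, rose 5.33-fold (134 and 712), and SULF2, which trims heparan sulfate, rose 4.89-fold (63.1 and 309), though its other probe set gave 0.22. In the other direction, the glucagon gene GCG read 1207 with vector and 15.1 with PSAT1, and the transcription factor KLF4 read 1486 and 44.6. RGCC, a cell cycle regulator, fell 6.68-fold (1737 and 260), and its second measured probe set gave -0.30. SEL1L3 fell 7.80-fold (441 and 56.5, under 2-fold with averaged probe sets) and ARHGAP18 5.61-fold (839 and 149). FLRT3, COL11A1, APELA, CYP26A1, FREM2, POSTN, GCG and CDH6 were below the floor on both CL1-5 arrays, so no ratio could be taken there. KLF4 read 1118 and 877 in CL1-5 with the non-silencing and the PSAT1 hairpin.

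**Figure D1:**
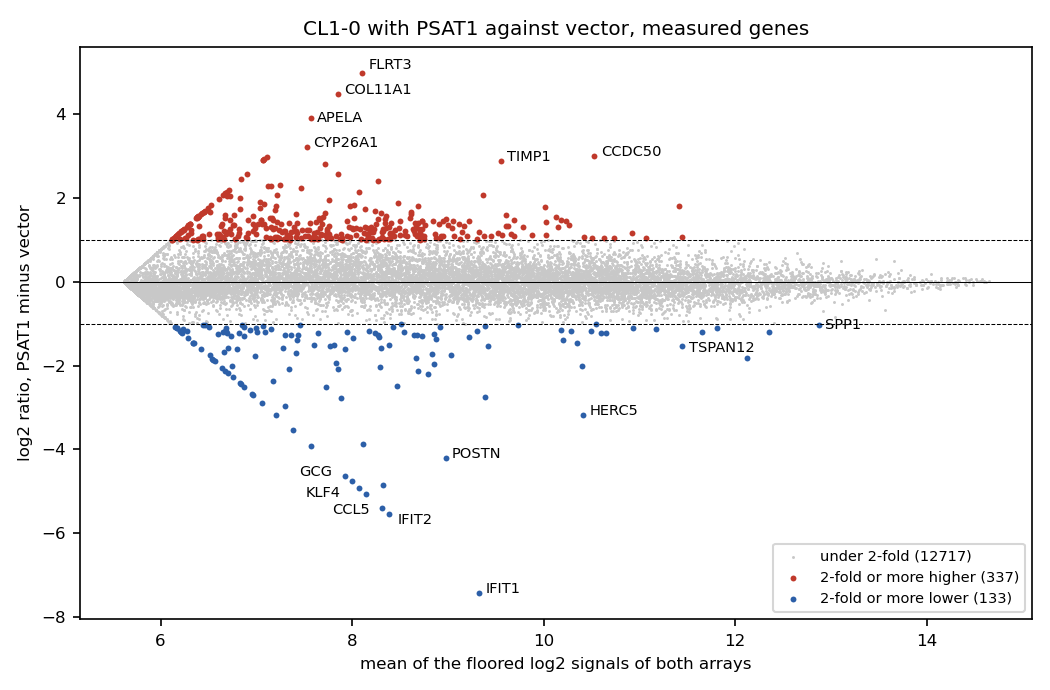
Log2 ratio (PSAT1 minus vector, vertical axis) of the 13187 measured genes against the mean of the floored log2 signals of both arrays (horizontal axis); dashed lines mark 2-fold. Red points are the 337 higher and blue points the 133 lower genes, and points along the slanting edges on the left have 1 array at the floor, so their ratios are bounds.

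Rises outnumbered falls at 2-fold and at 3-fold, and falls outnumbered rises from 5-fold on. At 3-fold or more 61 genes were higher and 53 lower (0.463% and 0.402%), at 5-fold or more 15 and 26, and at 10-fold or more 3 and 12. The median over all measured genes was -0.01, and the central range from the 5th to the 95th percentile ran from -0.54 to 0.79. Positive ratios made up 47.8% of all measured genes, the share beside which sign counts of families are to be read. Counts past 2-fold are likewise to be read beside 3.56%, and beside the share among genes of like signal. The median also moved with signal: it was -0.06 for genes with a mean log2 signal of 6 to 7, 0.12 for 7 to 8, 0.08 for 8 to 9 and -0.06 for 11 to 12. So did the share past 2-fold. Of 2253 genes at 6 to 7, 102 were higher and 47 lower. Of 1227 genes at 11 to 12, 3 were higher and 4 lower. Of the 470 genes past 2-fold, 84 rested on a bound, and 243 had 2 or more measured probe sets, of which 75 had all of them past 2-fold the same way. Averaging the probe sets of each gene left 166 higher and 79 lower, quantile normalization 224 and 134, and centring 245 and 143.

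Matrix lists held differences in both directions. Among 20 measured collagen chains 2 were higher and 1 lower, 15% in all, beside 3.56% of all measured genes. The fibrillar chain COL11A1 read 48.0 with vector and 1093 with PSAT1, at least 22.3-fold higher, in 3 of 3 probe sets. The basement membrane chain COL4A5 rose 2.59-fold (83.9 and 217), and the fibrillar COL3A1 fell at least 6.37-fold (312 and 27.4). COL5A2 read 5023 and 8135, and COL1A1 257.5 and 221. Of 25 matricellular and matrix glycoproteins 2 were higher and 2 lower, 16% in all. The filament-forming matrilin MATN2 read 22.8 and 373, and LTBP1, which holds latent TGF-beta in the matrix, rose 4.22-fold (321 and 1352) with both probe sets at 2-fold. POSTN, periostin, fell 18.3-fold (2154 and 118), and SPP1, osteopontin, fell 2.05-fold from 10718 to 5235. In the basement membrane list FREM2, an extracellular protein of epithelial attachment, rose 7.06-fold (79.1 and 558) and EFEMP1, a fibulin, fell at least 3.57-fold (175 and 11.8). Past 2-fold were 14.3% of the 14 measured genes of that list. Median mean log2 signals of the collagen, glycoprotein and basement membrane lists were 6.90, 6.83 and 7.71, and dimmer genes of all kinds passed 2-fold more often. Integrins had no 2-fold difference among 14 measured, nor had the 16 proteoglycans, beside 3.56% of all measured genes. With averaged probe sets COL4A5, COL3A1, EFEMP1 and SPP1 were under 2-fold, and EFEMP1 also with the 65th percentile floor.

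Inhibitors of matrix and coagulation proteases moved in both directions. All 4 measured members of the TIMP group, which inhibit metalloproteinases, had positive ratios with a median of 0.84 (0.52 to 1.19 over the alternatives). TIMP1 read 277 with vector and 2028 with PSAT1, and TIMP2 rose 2.24-fold (1295 and 2898, under 2-fold with averaged probe sets). TIMP3 (89.9 and 128) and RECK (190 and 273) stayed under 2-fold. TIMP1 read 1824 and 1790 on the CL1-5 arrays. None of 11 matrix metalloproteinases and none of 13 ADAM and ADAMTS genes reached 2-fold, beside 3.56% of all measured genes. In the list of the plasminogen system and serpins 8 of 10 ratios were negative and 2 genes fell. Those falls were 20% of the list, beside 1.01% lower among all measured genes. TFPI2, a Kunitz-type protease inhibitor laid down in the matrix, read 570 and 19.3, at least 11.6-fold lower. TFPI, the tissue factor pathway inhibitor, fell 3.54-fold (762 and 215), but was under 2-fold with averaged probe sets. The serpin SERPINE2 read 399 and 229.5.

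Among 33 cell junction genes none rose and 4 fell, 12.1% beside 3.56% of all measured genes. The desmosomal cadherin DSG2 read 444 with vector and 14.3 with PSAT1, and its second probe set gave -0.91. CDH6, a classical cadherin, read 319 and 13.3, and all 5 of its measured probe sets were negative, from -2.70 to -0.85. The tight junction gene CLDN4 (112 and 29.7) and the connexin GJA3 (251 and 123.5) lay just past 2-fold. With averaged probe sets both were under 2-fold, and CLDN4 also with centring and the higher floor. E-cadherin (CDH1) and N-cadherin (CDH2) were below the floor on both arrays. In the cytoskeleton, SYNM, an intermediate filament linker, rose 3.11-fold (179 and 555), while NEFL, a neurofilament subunit, fell 6.88-fold (619.8 and 90.1), with its second probe set at -0.34. Of 7 measured keratins 6 had negative ratios, with a median of -0.37, and none fell by 2-fold. Only 4 of the 7 were above the floor with PSAT1, so 3 ratios could only be negative. KRT18 read 757 and 635, and vimentin (VIM) 13287 and 12259.6. The myosin kinase MYLK rose 2.86-fold (230 and 658, under 2-fold with averaged probe sets), and RND3 fell 2.02-fold (2121 and 1048, under 2-fold with quantile normalization).

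All 7 measured S100 genes, small calcium-binding proteins, had negative ratios. Only 4 of them were above the floor with PSAT1, and the ratios of the other 3 could only be negative. Their median was -0.68 (-0.88 to -0.22 over the alternatives) and 3 fell, 42.9% beside 1.01% lower among all measured genes. S100A10 read 445 with vector and 116 with PSAT1, S100A6 read 115 and 33.6, and S100A2 read 103.5 and 45.9. S100A6 and S100A2 were under 2-fold with centring and the higher floor, and S100A10 and S100A6 with averaged probe sets. S100A2 was also under 2-fold with quantile normalization. The 7 annexins, their binding partners, had 4 positive and 3 negative ratios and no 2-fold difference.

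**Figure D2:**
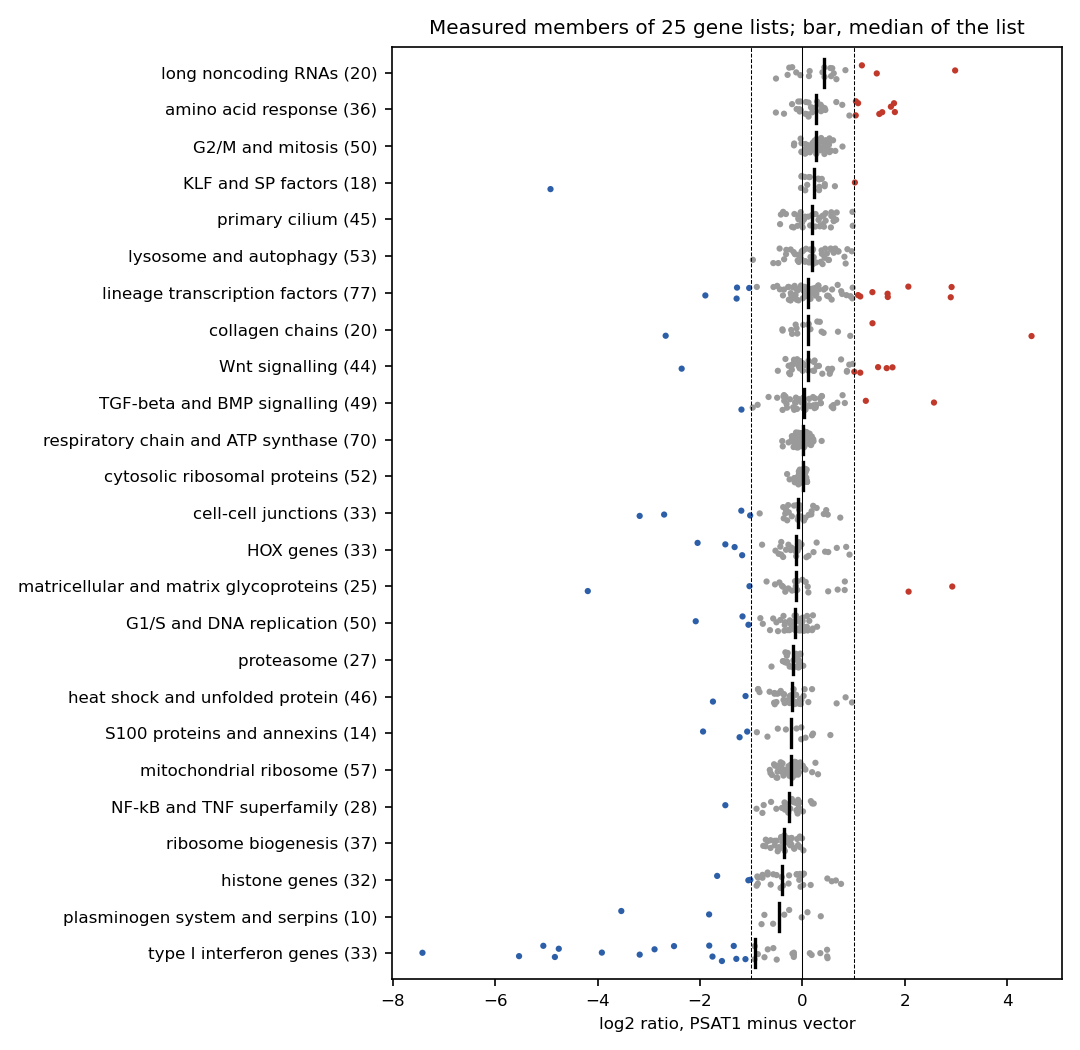
Log2 ratio (PSAT1 minus vector) of the measured members of 25 gene lists, 1 point per gene, with the number measured in parentheses, ordered by the list's median (black bar). Red points are 2-fold or more higher, blue points 2-fold or more lower, grey points lie between; ribosome biogenesis members are negative in 36 of 37 and mitosis members positive in 44 of 50, with none past 2-fold, while collagen and lineage factor members spread to both sides.

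Wnt genes held 5 rises and 1 fall among 44 measured, 13.6% beside 3.56% of all measured genes. By role, the ligand group held WNT5A, a ligand of the non-canonical branch, 2.79-fold higher (121 and 338, both probe sets past 2-fold), and RSPO3, which potentiates Wnt receptors, 3.39-fold higher (71.5 and 242.5). The receptor ROR1, which binds WNT5A, rose at least 2.19-fold (34.8 and 107), a call kept only without multi-transcript probe sets. Among antagonists DKK1 fell 5.13-fold (328 and 63.9) while its divergent relative DKK3 rose 3.13-fold (119 and 372, under 2-fold with averaged probe sets). The transcriptional repressor TCF7L1 rose 2.02-fold (100.1 and 202, lost with quantile normalization, centring and the higher floor). AXIN2, a feedback target of the canonical branch, read 121 and 171, and LEF1 85.6 and 88.8. The list's median was 0.12 but -0.03 with the 25th percentile floor.

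In other growth factor systems single genes differed. In the TGF-beta and BMP list, 2 of 49 rose and 1 fell, 6.12% beside 3.56% of all measured genes. The divergent ligand GDF15 read 94.6 with vector and 563 with PSAT1, and SMAD6, an inhibitory SMAD, rose 2.36-fold (116 and 274). FST, which traps activin, fell 2.28-fold (194 and 85.0). All 3 were under 2-fold with averaged probe sets, and FST also with the higher floor and without multi-transcript probe sets. The ID genes, direct BMP targets, read 6139 and 3882 for ID3 and 4288 and 2338 for ID4. In the EGF family ERRFI1, a feedback inhibitor of the EGF receptor, rose 2.90-fold (658 and 1910) and LRIG3, a receptor regulator, 2.21-fold (65.5 and 145, under 2-fold with quantile normalization and the higher floor). KITLG, the ligand of the receptor KIT, fell 4.12-fold (635.5 and 154, under 2-fold with averaged probe sets). The hedgehog receptor PTCH1 rose 2.45-fold (338 and 827) and the Notch coactivator MAML3 fell 4.20-fold (473.5 and 113). Both were under 2-fold with averaged probe sets. FGF20 rose 2.07-fold (53.6 and 111, lost with quantile normalization, centring and the higher floor), and the FGF feedback genes, 13 measured, had none past 2-fold. DUSP6, one of them, read 9979 and 8923. Among 13 ephrins and Eph receptors EFNA2 rose 2.40-fold (206.5 and 496) and EFNA5 fell 2.39-fold (149 and 62.6), with EPHA3 at least 2.75-fold lower (135.0 and 25.4). All 3 were under 2-fold with averaged probe sets. EFNA5 and EPHA3 were also under 2-fold with the higher floor, and EFNA5 without multi-transcript probe sets.

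The enzymes that break down retinoic acid moved apart. CYP26A1, whose promoter stretch is shown above, read 60.8 with vector and 561 with PSAT1, 9.23-fold higher. CYP26B1 read 2460 and 1053, 2.34-fold lower, with its other probe set at -0.30, and was under 2-fold when these were averaged. The 8 measured genes of retinoid synthesis and binding and the 8 of receptors and targets had no 2-fold difference. Examples are the receptors RARA (84.8 and 106) and RARB (990 and 1022), and the reductase DHRS3 (71.4 and 90.5).

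Transcription factors of lineage showed both directions, and forkhead genes mostly 1. Of 77 lineage factors measured, 8 were higher and 4 lower, 15.6% beside 3.56% of all measured genes. Forkhead genes had positive ratios in 14 of 17 (82.4%, beside 47.8% of all measured genes), with a median of 0.32 (0.26 to 0.76 over the alternatives). FOXC2 read 39.1 with vector and 156 with PSAT1, FOXO1 read 128 and 330.0, and FOXF1 338 and 718. FOXC2 and FOXO1 were under 2-fold with averaged probe sets, and FOXC2 with the higher floor. FOXP2 read 18.8 and 206, yet its other measured probe sets gave ratios down to 0.03, and under quantile normalization and centring it was represented by another probe set at -0.01 and -0.05. GATA3, a zinc finger factor of luminal epithelium and T cells, rose 3.17-fold (220 and 697) in all 3 probe sets. OLIG1, a factor of oligodendrocyte development, read 45.9 and 370, and MDFIC, an inhibitor of MyoD family proteins, read 17.2 and 366. The epithelial factor GRHL1 rose 2.19-fold (139 and 304, under 2-fold with quantile normalization and averaged probe sets). The factors lower with PSAT1 were TWIST1 (636.5 and 263), TWIST2 (165 and 80.3), ZEB2 (182.5 and 8.09) and NKX2-2 (166 and 68.2). TWIST1, TWIST2 and ZEB2 are known for driving epithelial-mesenchymal transition. TWIST2, ZEB2 and NKX2-2 were under 2-fold with the higher floor, TWIST2 and ZEB2 also with averaged probe sets, and ZEB2 without multi-transcript probe sets.

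KLF4 fell at least 30.3-fold while KLF5, its relative, rose at least 2.04-fold (42.4 and 99.8, lost with quantile normalization, centring and the higher floor). The second KLF4 probe set gave -1.32. Of 13 measured KLF genes 9 had positive ratios, KLF6 among them at 1019 and 1282. Genes of pluripotency and fetal growth were mixed. LIN28A, an RNA-binding protein that blocks let-7 maturation, fell 2.61-fold (1899.6 and 727), and its relative LIN28B read 5858 and 3190. APELA, a peptide ligand of the apelin receptor, read 33.2 and 734. SOX2 read 8851 and 9327, and SALL4 754 and 1069.

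HOX genes leaned downwards. Of 33 HOX and cofactor genes 24 had negative ratios, with 4 falls (12.1%, beside 1.01% lower among all measured genes) and no rise. Positive ratios made up 27.3% of them, beside 47.8% of all measured genes. HOXD13 fell 2.84-fold (564 and 199) in all 3 probe sets. The other 3 were neighbours in the HOXB cluster. In order along the cluster the ratios were HOXB1 -0.32, HOXB2 -0.09, the antisense HOXB-AS1 0.28, HOXB3 -0.38, HOXB4 -0.02, HOXB-AS3 -0.05, HOXB5 -0.79, HOXB6 -2.05, HOXB7 -1.32, HOXB8 -1.18, HOXB9 -0.53 and HOXB13 0.08. HOXB6 read 203 with vector and 25.1 with PSAT1, HOXB7 493 and 197, and HOXB8 153 and 67.7. HOXB6 and HOXB8 were under 2-fold with the higher floor, HOXB7 and HOXB8 with averaged probe sets.

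**Figure D3:**
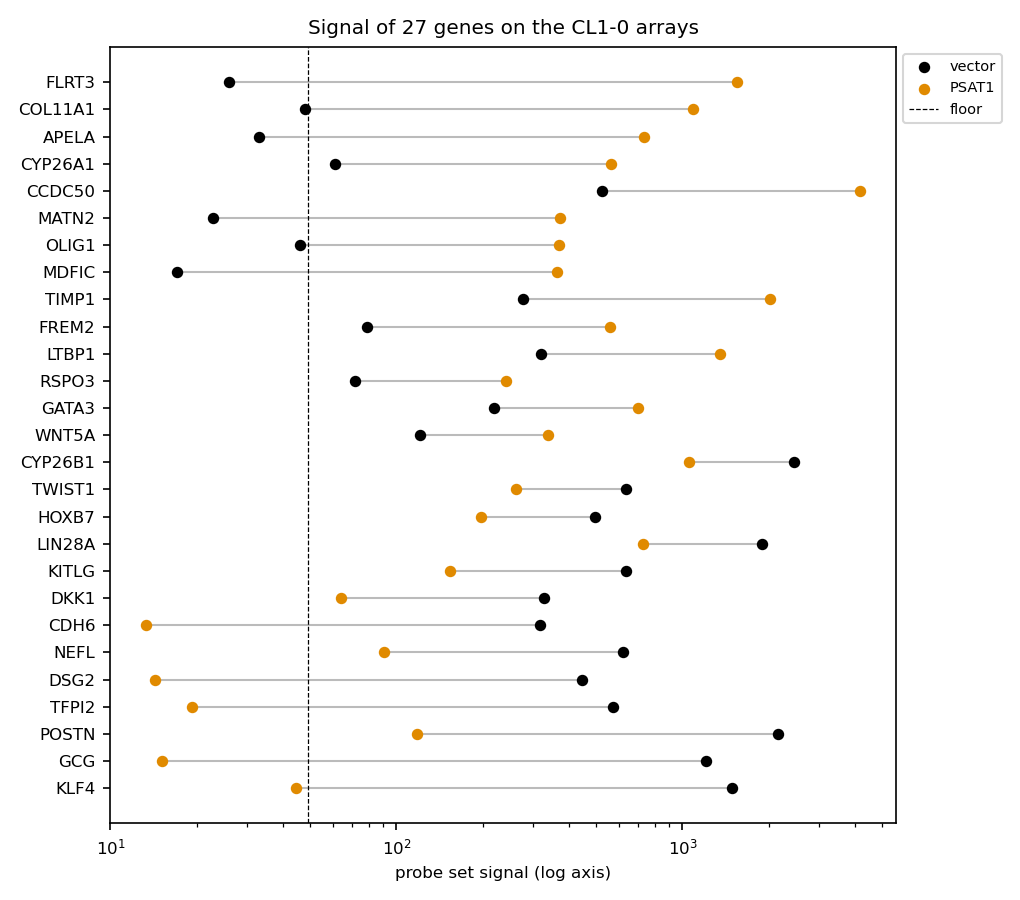
Deposited signal (log axis) of 27 named genes with vector (black) and with PSAT1 (orange), ordered by log2 ratio, 1 probe set per gene and 1 array per point. FLRT3, MATN2 and MDFIC start well below the floor (dashed line at 49.0), CCDC50, TIMP1 and LTBP1 rise from clear signal, and CDH6, DSG2, TFPI2 and GCG end below the floor.

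Immediate early genes, the fast transcriptional response to growth signals, were mostly dimmer with PSAT1. Of 20 AP-1, EGR and related genes 18 had negative ratios, with a median of -0.23 (-0.42 to -0.22 over the alternatives), and 3 fell. Those falls were 15% of the 20, beside 1.01% lower among all measured genes. NR4A2, an orphan nuclear receptor, fell 3.40-fold (233.5 and 68.6) in all 3 probe sets. JUN read 498 and 237.5, and FOS 127 and 61.7. JUN was under 2-fold with averaged probe sets and FOS with the higher floor. EGR1 read 1104 and 579, and JUNB 416 and 223. NF-kB and TNF superfamily genes had 24 of 28 ratios negative with a median of -0.25, and the inhibitor NFKBIZ fell 2.84-fold (327 and 115). All 5 measured chemokines were negative. Only 2 of them were above the floor with PSAT1, so 3 ratios could only be negative. CCL5 read 2055 and 25.2 in the representing probe set, and CXCL10 read 267 and 28.8.

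Type I interferon genes held 16 of the 133 falls, by role 14 of 23 effectors and 2 of 10 sensors and regulators. The 16 were 48.5% of 33 measured, beside 1.01% lower among all measured genes, and the alternatives gave 12 to 17 falls. DDX60 was under 2-fold with quantile normalization, centring and the higher floor. IFIT5, ISG20 and PARP14 were under 2-fold with the higher floor, and PARP14 also with averaged probe sets. The effectors' median was -1.34 and that of the sensors and regulators -0.44. IFIT1 read 8422 with vector and 24.1 with PSAT1. ISG15, a ubiquitin-like modifier, read 8403 and 2379, and its ligase HERC5 4097 and 452. IFIT1, IFIT3, ISG15, HERC5 and CXCL10 are the 5 whose response elements are printed above. The RNA sensors RIGI (1057 and 72.1) and IFIH1 (363 and 8.58) fell, the latter under 2-fold with averaged probe sets, while their adaptor MAVS read 503 and 702. IRF9 (272.5 and 238) and IRF7 (116 and 103) stayed under 2-fold, as did the receptor chain IFNAR2 (446 and 626.5). MX1, OAS1 and IFI27 were below the floor on both arrays. On the CL1-5 arrays IFIT1 read 969 with the non-silencing and 2313 with the PSAT1 hairpin.

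Genes of the amino acid response, targets of ATF4, held 8 rises and no fall among 36 measured, with a median of 0.27. These rises were 22.2% of the list, beside 2.56% higher among all measured genes. CHAC1, which degrades glutathione, read 183 with vector and 519 with PSAT1, and JDP2, a bZIP repressor, 190 and 561. These are the 2 whose promoters held the composite element. The secreted glycoprotein STC2 read 402 and 855, the pseudokinase TRIB3 1183 and 2444 and the stress sensor SESN2 336.5 and 693. JDP2, STC2 and TRIB3 were under 2-fold with averaged probe sets, TRIB3 and SESN2 with centring, and SESN2 also with quantile normalization. ATF4 itself read 9275 and 11318, and ASNS, asparagine synthetase, 4523 and 4860. The mitochondrial enzymes PCK2 (495 and 1101) and IDH2 (636 and 1385) rose, as did the pyruvate dehydrogenase kinase PDK3 (495.5 and 1386, with 1 of 5 probe sets at 0.03, and under 2-fold when these were averaged). None of 33 aminoacyl-tRNA synthetases and none of 18 serine and one-carbon enzymes reached 2-fold, beside 3.56% of all measured genes. Both lists were bright, with median mean log2 signals of 10.9 and 11.3. At 10 to 11, 14 of 1846 genes of all kinds were higher and 11 lower, and at 11 to 12, 3 of 1227 and 4. The lack of calls therefore does not set these lists apart. SLC1A3, a glutamate and aspartate importer, fell at least 4.50-fold (220.5 and 42.0), alone among 25 amino acid transporters.

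Several families of growth and protein production had small ratios of mostly 1 sign, and others were split. Ribosome biogenesis factors had 36 of 37 ratios negative, with none at 2-fold and a median of -0.35 (-0.42 to -0.28 over the alternatives). UTP15 read 1123 with vector and 661 with PSAT1, and NOP16 5789 and 3516. The exception was NHP2 at 9839 and 9980. Mitochondrial ribosomal proteins had 51 of 57 negative with a median of -0.22, from MRPL1 (2596 and 1669) to MRPL34 (3581 and 4427). Cytosolic ribosomal proteins had 27 positive and 24 negative ratios among 52 genes, all between -0.30 and 0.09, and the 70 respiratory chain genes had 36 positive and 34 negative. Proteasome subunits had 26 of 27 negative (median -0.17). Heat shock proteins and their cochaperones had 24 of 26 negative with a median of -0.32, and 2 fell. DNAJB4 read 956 and 285, and DNAJB1 2870 and 1329. These list medians kept their sign under all 6 alternatives, except those of the cytosolic ribosome (median 0.00) and the respiratory chain (0.01), which changed sign. MYC read 3275 and 3052.

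The phases of the cell cycle differed in sign. Mitosis genes were positive in 44 of 50 with a median of 0.27, as in CDC25C (837 and 1441), ASPM (2510 and 3922) and CENPF (1350 and 2046). Genes of G1/S and replication were negative in 38 of 50 with a median of -0.15 and 3 falls. Those falls were 6% of the list, beside 1.01% lower among all measured genes. The D-type cyclin CCND2 read 333 and 78.5, the phosphatase CDC25A 2165 and 962, and the origin protein ORC1 962 and 463. CCND2 was under 2-fold with averaged probe sets. CCNE1, cyclin E, read 1433 and 811. Core and linker histones, whose transcripts peak in S phase, were negative in 22 of 24 with a median of -0.59 (-0.75 to -0.59 over the alternatives), and H2AC16 (181 and 57.1), H4C8 (193 and 92.9) and H2AC14 (519 and 257) fell. With the higher floor H2AC16 and H4C8 were under 2-fold, and H4C8 also with averaged probe sets. The 8 histone variants had 5 positive ratios. Histone genes share sequence and some transcripts lack a poly(A) tail, so single members are uncertain. Among inhibitors and p53 targets 5 of 34 rose and 2 fell, 20.6% beside 3.56% of all measured genes. The pocket protein RBL2 read 705 and 1532, the cyclin G gene CCNG2 720 and 1789, and the kinase PLK2 134 and 33.2. RBL2 and CCNG2 were under 2-fold with averaged probe sets, and PLK2 with the higher floor.

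Zinc finger genes were the largest family by symbol, and most had positive ratios. Of 384 measured genes whose symbols begin with ZNF, 261 had positive ratios (68.0%), 17 rose and 1 fell. Among all measured genes 47.8% of ratios were positive. Their median was 0.20 and stayed between 0.10 and 0.21 over the alternatives. Their median mean log2 signal was 7.98, where genes of all kinds had medians of 0.12 (7 to 8) and 0.08 (8 to 9). The largest rises were ZNF677 (36.4 and 175), ZNF423 (136 and 472), a cofactor in BMP and retinoid signalling, and ZNF345 (97.9 and 299). ZNF556 fell 2.24-fold (116 and 51.7). Intraflagellar transport genes (IFT) had 13 of 18 positive with a median of 0.42 (0.30 to 0.56), such as IFT80 (732 and 1443), and centrosomal CEP genes 23 of 34 positive with a median of 0.22. The cilium list as a whole had 28 of 45 positive and no 2-fold difference. BBS2, of the ciliary BBSome, read 648 and 1281, and CEP290 538 and 415. Lysosomal genes were positive in 22 of 28 (median 0.20), including the protease TPP1 (499 and 975.5) and the sterol carrier NPC2 (2382 and 4386), with CTSC, cathepsin C, as an exception (1885 and 964).

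Of 787 long noncoding RNAs measured, 43 were higher and 2 lower, 5.72% in all, beside 2.56% higher and 1.01% lower among all genes. Dim genes of all kinds passed 2-fold more often. At a mean log2 signal of 6 to 7, 102 of 2253 genes were higher and 47 lower. At 7 to 8, 103 of 1765 were higher and 30 lower. Noncoding RNAs with LINC symbols had a median of 6.30, and the 787 were not matched to other genes by signal. The alternatives gave between 26 and 59 higher and between 1 and 4 lower. The median over the 787 was 0.02. The 163 with LINC symbols had 58 positive and 103 negative ratios, 7 rises and no fall, with a median of -0.08 that was 0.12 with the higher floor. UCA1, a transcript associated with bladder cancer, read 34.6 with vector and 388 with PSAT1, and 372 and 402 on the CL1-5 arrays. MIR181A2HG, a microRNA host transcript, rose 4.74-fold (80.9 and 384) and FTX, of the X-inactivation region, 2.74-fold (149 and 407, under 2-fold with averaged probe sets). MALAT1 read 1556 and 2788. The 2 lower were RBMS3-AS3 (378.5 and 132) and ALMS1-IT1 (182 and 82.0). Many of these overlap other genes and probe strand was not checked, so their identity is uncertain.

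Metabolic and signalling genes past 2-fold were scattered. The aldehyde dehydrogenases ALDH2 (247 and 658) and ALDH5A1 (562 and 1380) rose, as did the lipid carrier APOE (766 and 1964, 3 of 3 probe sets positive) and the elongase ELOVL2 (104 and 240). Haem oxygenase HMOX1 fell from 2371 to 1010. TSPAN12, a tetraspanin of norrin signalling, fell 2.89-fold (4746 and 1645) in all 3 probe sets, and TM4SF1 rose 2.55-fold (321 and 818.5). The G-protein regulator RGS20 fell 4.37-fold (861 and 197) and the neurokinin B gene TAC3 4.03-fold (215 and 53.5). TET1, a DNA demethylase that uses alpha-ketoglutarate, rose 2.44-fold (93.5 and 228). ALDH5A1, ELOVL2, TM4SF1 and TET1 were under 2-fold with averaged probe sets. Glycolysis genes had none of 30 past 2-fold and ABC transporters none of 20, beside 3.56% of all measured genes. The glycolysis list had a median mean log2 signal of 11.05. At 11 to 12, 3 of 1227 genes of all kinds were higher and 4 lower, so its lack of calls does not set it apart.

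Fibroblast markers fell in 2 of 6 measured, POSTN and COL3A1, and all 6 ratios were negative. Only 4 of the 6 were above the floor with PSAT1, so 2 ratios could only be negative. THY1 read 75.8 and 60.2, PDGFRB 60.9 and 54.2 and ACTA2 62.3 and 45.5, all close to the floor. Immune and endothelial markers had 5 of 12 measured and none past 2-fold. The part of other cells in these results was not tested.

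Some genes past 2-fold were neighbours. Among 13137 pairs of measured genes next to each other in reference gene order, 14 had both members higher, 11 had both lower and 6 had 1 of each. Of the neighbours of lower genes 8.33% were lower, against 1.01% of all genes, and of the neighbours of higher genes 4.17% were higher, against 2.56%. The lower pairs include members of gene families, IFIT2, IFIT3, IFIT1 and IFIT5 on chromosome 10 and HOXB6 to HOXB8 on chromosome 17. Neighbours from different gene families were found too. On chromosome 7 the paternally expressed imprinted genes SGCE (213 with vector and 32.2 with PSAT1) and PEG10 (177 and 28.7, under 2-fold with the higher floor) fell with TFPI2, while BET1 and CASD1 between them had ratios of 0.11 and 0.11. GCG and IFIH1 are neighbours on chromosome 2, and so are SPART (1163 and 404, under 2-fold with averaged probe sets) and CCNA1 (263 and 31.0) on chromosome 13. Among rises, FLRT3 lies within the MACROD2 locus on chromosome 20, and MACROD2 itself read 23.4 and 291 in its representing probe set, with others down to -0.10. CCDC50 lies beside UTS2B (8.76 and 128, under 2-fold with centring and the higher floor) on chromosome 3, and COL11A1 beside OLFM3 (56.6 and 227) on chromosome 1. NUDT7 (363 and 987) and WWOX (375 and 860) are adjacent on chromosome 16, and both were under 2-fold with averaged probe sets. Whether probe sets of neighbouring genes read 1 transcript was not tested.

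**Figure D4:**
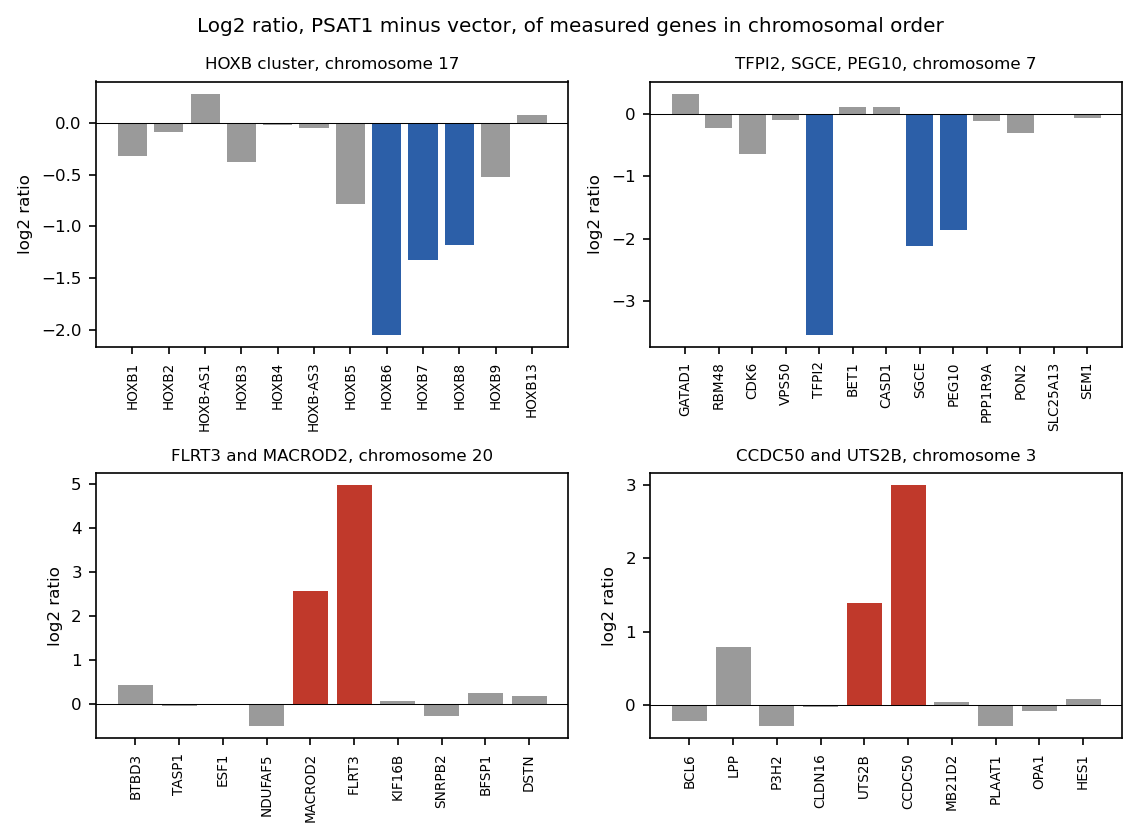
Log2 ratio (PSAT1 minus vector, vertical axis) of measured genes in chromosomal order around 4 groups of neighbours; blue bars are 2-fold or more lower, red bars 2-fold or more higher and grey bars lie between. In the HOXB cluster the fall centres on HOXB6 to HOXB8, TFPI2 is separated from SGCE and PEG10 by BET1 and CASD1 near 0, and the rises of MACROD2 and FLRT3 and of UTS2B and CCDC50 stop at their flanking genes.

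Over chromosomes 1 to 22 and X, medians ran from -0.07 on chromosome 1 to 0.16 on chromosome 15. On chromosome 15, 434 genes were measured and 68.7% had positive ratios (47.8% over all measured genes). There 23 were higher and 2 lower, 5.76% in all, beside 3.56% of all measured genes. Its median was 0.10 to 0.21 over the alternatives, and 0.01 for the CL1-5 arrays, hairpin minus non-silencing. Its higher genes include CHAC1, IDH2, SMAD6, SYNM, the creatine synthesis enzyme GATM and the zinc transporter SLC30A4, which belong to different lists. SMAD6 and SLC30A4 were under 2-fold with averaged probe sets. Chromosome 16 had 17 genes higher and 0 lower of 627 (2.71%), and chromosome 4 had 14 of each among 442 (6.33%). In 317 windows of 40 consecutive measured genes, window medians had an SD of 0.095 and ran from -0.25 to 0.29.

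**Figure D5:**
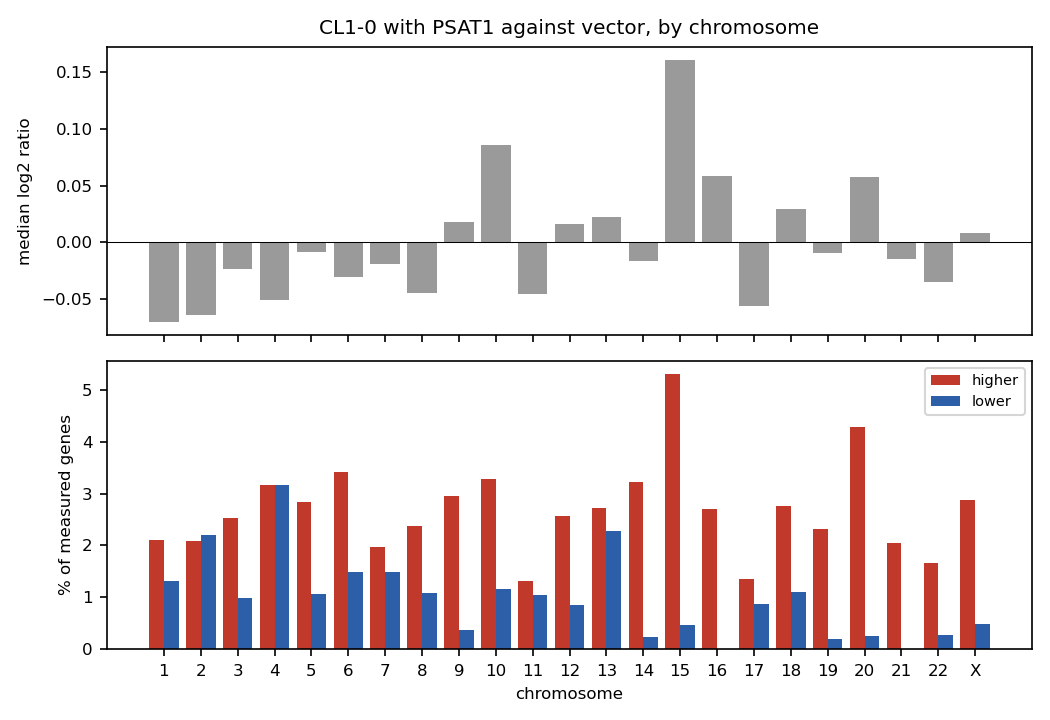
Top, median log2 ratio (PSAT1 minus vector) of measured genes on each chromosome; bottom, percent of measured genes 2-fold or more higher (red) or lower (blue). Chromosome 15 has the highest median, 0.16, and the highest share of higher genes, and chromosome 4 has 14 genes in each direction.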

How the data were processed

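Signals are the deposited probe set intensity values, 1 per probe set and array on a linear scale. MAS5 is named by the submitters' processing notes as the authors' software; its version and scaling target are not given in the sources used here. Values were identical at 1260 probe sets (2.30%) of the CL1-0 pair, at 1749 of the CL1-5 pair and at 0 between the vector and non-silencing arrays, which is unusual for MAS5 signals of separate arrays, so whether another step followed within each line is not known. Of 54675 probe sets, 62 were controls. The platform annotation gave 1 symbol to 41097, several to 1801 and none to 11777, and 41043 were matched to a reference gene table (GRCh38.p14), which gave gene order; 59 of Y-linked or X-inactivation genes were left out. A gene was represented by its brightest probe set over the 4 arrays, leaving 19740 genes. Signals were floored at 49.0 (pooled 50th percentile), and log2 ratios were taken. With 1 array a group, precision is limited by their number and the spread between arrays could not be measured. The SD of ratios between probe sets of 1 gene on these arrays was 0.289.

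There were 72 gene lists, described by counts and medians. The members and lists were chosen with earlier results of these data known. Genes named were PSAT1, some of the largest rises, falls and bounds, some list members past 2-fold, and members with a described role. The largest were up to 12 in each direction whose brighter array reached 212.6 (75th percentile), and not all of them are named. Genes named as neighbours, as noncoding RNAs or by chromosome were chosen after their values were seen. Alternatives were quantile normalization, median centring, floors at the 25th and 65th percentile, averaging each gene's probe sets, and leaving out probe sets marked as matching several transcripts. Families were also formed by symbol stem (15 or more measured genes). Promoter sequences come from RefSeq. The calculation was tested on simulated data. Python 3.11.15, pandas 2.3.3 and numpy 2.4.6 were used.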

Additional observations from a re-analysis of the deposited data

How the results depend on the processing

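No paired analysis was possible because each group has 1 array. The count of higher genes was 337, and 224 with quantile normalization and 166 with the mean over probe sets; the count of lower genes was 133, and 79 with the mean over probe sets. Other settings stayed within 1.5 times both counts. Rises made up 71.7% of differences, 62.6% with quantile normalization and 63.1% with centring. Of the 337 higher genes, 214 were also higher with quantile normalization and 158 with the mean over probe sets, and of the 133 lower genes 129 and 74. Single genes were followed for 188, and 106 of them were under 2-fold in 1 or more alternatives. Some of the 188 had no measured probe set once multi-transcript probe sets were left out, so they could not be followed there. A sign changed for DBP (-0.43 without multi-transcript probe sets), FOXP2 (-0.010 with quantile normalization and -0.047 with centring) and MACROD2 (-0.10 with the 25th percentile floor). In each of these settings the gene was represented by another of its probe sets. Why the probe sets differ was not tested. Alternatives for symbol stems and chromosomes were chosen after seeing the data. Signals near the floor limit 84 of the 470 differences to bounds.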
